A study of Bos taurus with 6 samples.

Results

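The genes described here encode enzymes that hydroxylate and cross-link collagen, and the chaperone that folds it. They are LOX, LOXL1, LOXL2, LOXL4, PLOD1, PLOD2, P4HA1, P4HA2, P4HA3 and SERPINH1. They were chosen with earlier results of these data known, and their rows were found by gene symbol in the array's annotation. All 10 were measured, out of 18010 named genes, and where a gene had more than 1 probe set, the brightest on average over the 6 samples was used. Messenger RNA came from fibroblasts of the bovine ovarian stroma, kept in culture in DMEM/F12 medium with FKS. The 3 tumor samples were cells from ovarian tumor and the 3 normal samples were cells from normal ovary. Neither group received a specific treatment. The labels name no tumor type, genotype, age or passage, and they do not say whether samples came from separate animals, so a p-value here speaks only of the scatter among the 6 samples, part of which may be technical.

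Collagen chains are modified inside the endoplasmic reticulum (ER) before they leave the cell. Prolyl 4-hydroxylases turn proline into hydroxyproline, which keeps the triple helix stable at body temperature, and lysyl hydroxylases mark the lysines from which cross-links form. SERPINH1 (HSP47) binds the finished helix in the ER. Outside the cell, the copper enzymes of the lysyl oxidase family oxidise lysines of collagen and elastin, and the products join neighbouring molecules into stiff fibres. Stromal fibroblasts are the main makers of fibrillar collagen in the ovary.

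Values are log2 expression as deposited, so a difference of 1 is a doubling. Probe sets differ in how strongly they bind, so levels were compared between groups and not between genes. Sample medians lay between 4.45 and 4.55, and the number of samples limits the precision. Fibroblast identity was checked with 8 markers, whose mean level was 11.29 to 11.59 in tumor samples and 10.93 to 11.18 in normal samples. PTPRC, the defining leukocyte gene, was at 2.20 to 2.44 in tumor samples and 2.24 to 2.44 in normal samples. Both ranges lie under 3.54, the 95th percentile of the group means of olfactory receptor genes, used here as a guide to background. Of 6 leukocyte markers 1 passed the test, CD68, a lysosomal protein used as a macrophage marker and named after its values were seen. It stood at 6.68, 6.48 and 6.07 in tumor samples and at 5.17, 5.34 and 5.27 in normal samples, a 2.22-fold rise (adjusted p = 0.00367, limma). The mean level of the leukocyte list was 3.66 to 3.86 in tumor samples and 3.40 to 3.56 in normal samples. Of 6 mural cell markers 4 passed, and of 5 endothelial and 4 granulosa markers 0 passed in limma, with 0 endothelial and 1 granulosa marker at an unadjusted p of 0.05 or less. Of 5 epithelial markers 3 were lower in tumor cells, namely the keratins KRT8, KRT18 and KRT19, of which KRT8 missed the threshold with tumor replicate 1, 2 or 3 or normal replicate 1 or 2 left out (adjusted p = 0.08 to 0.135). The mean level of this list was 3.61 to 3.65 in tumor samples and 4.33 to 5.07 in normal samples, with EPCAM at 1.90 to 2.20 in tumor samples and 1.92 to 2.01 in normal samples. Fewer cells of a type and less RNA per cell cannot be told apart in such samples, and the part of CD68- or keratin-expressing cells in the differences below was not tested.

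In tumor stromal cells 3 of the 10 genes rose and 1 fell. P4HA1, PLOD2 and LOXL4 rose, by 1.86-fold, 1.41-fold and 3.15-fold, and SERPINH1 fell to 0.737 of its normal level. The main lysyl oxidase, LOX, and its paralog LOXL1 differed by less than the SD of the tumor samples. The threshold was an adjusted p of 0.05 in limma, a linear model whose variances are pooled across genes, with Benjamini-Hochberg adjustment over all 18010 genes. It called 4 of the 10 genes, and 18% of all genes (8.56% higher and 9.44% lower in tumor cells). Groups did not overlap in 5 of the 10 genes, against 35.7% of all genes. The median difference, tumor minus normal, was 0.29 over the 10 genes and 0.02 over all genes. At an unadjusted p of 0.05 or less there were 6 of 10 genes, against 30.9% of all genes. The 4 calls had adjusted p-values of 0.0267 to 0.0461, and 0 passed in limma at an adjusted p of 0.01. With 1 sample left out the number called was 0 without tumor replicate 1 or 2 or normal replicate 2 or 3, 1 without tumor replicate 3, and 6 without normal replicate 1. In the fits with 0 calls, limma gave 4 to 6 of the 10 genes at an unadjusted p of 0.05 or less.

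**Figure D1:**
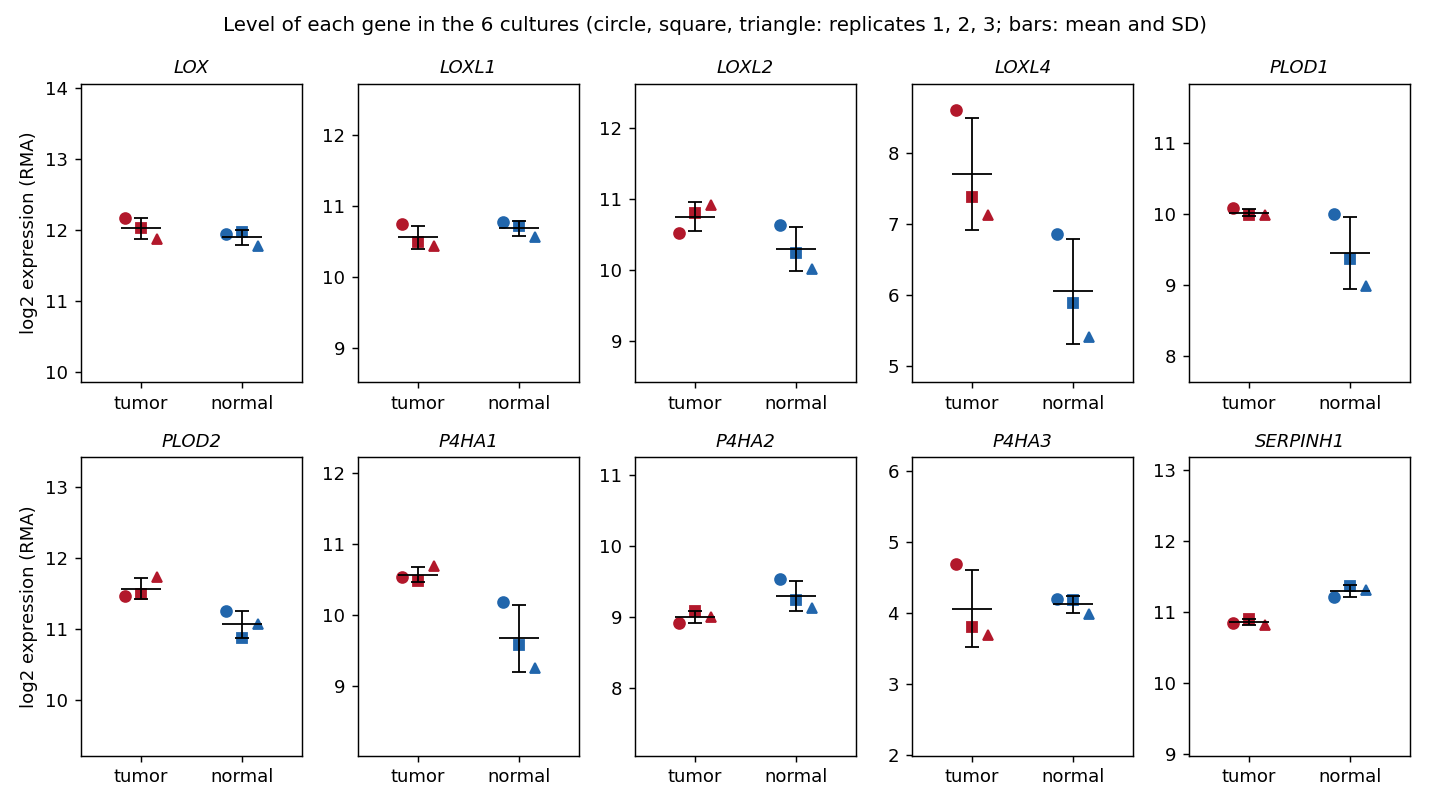
Level of each of the 10 genes in the 6 cultures, as log2 expression, with tumor samples at the left and normal samples at the right of each panel. Every panel spans the same number of log2 units. Points are samples and bars are the mean and SD of 3 samples. In LOXL4, PLOD2 and P4HA1 all tumor samples lie above all normal samples. In SERPINH1 and P4HA2 all lie below, in P4HA2 by only 0.04.

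The prolyl 4-hydroxylases are tetramers of a catalytic alpha subunit, encoded by P4HA1, P4HA2 or P4HA3, and protein disulfide isomerase, encoded by P4HB. P4HA1, the alpha subunit that most cells use, stood at 10.53, 10.47 and 10.68 in tumor samples and at 10.18, 9.57 and 9.25 in normal samples. The tumor samples lay within 0.21 of each other, while the normal samples spread over 0.93, and the lowest tumor sample was 0.29 above the highest normal sample. P4HA1 rose by 0.89 ± 0.22 (log2, SE; adjusted p = 0.0296, limma), a fold of 1.86 with a 95% interval of 1.30 to 2.66. P4HA2 pointed the other way, at 8.91, 9.08 and 9.0 in tumor samples and at 9.53, 9.23 and 9.12 in normal samples. Its groups did not overlap, by a gap of only 0.04, and the difference of -0.30 ± 0.14 did not pass (adjusted p = 0.191, limma). P4HA3, the least widely used alpha subunit, stood close to the background guide, at 4.68, 3.79 and 3.69 in tumor samples and at 4.19, 4.18 and 3.98 in normal samples. Its groups overlapped and it differed by -0.06 ± 0.25 (adjusted p = 0.9, limma), with a 95% interval of -0.64 to 0.52. The partner subunit P4HB was at 11.46 ± 0.07 in tumor samples and 11.41 ± 0.22 in normal samples (SD, n = 3), a difference of 0.05 ± 0.14 (adjusted p = 0.866, limma). The call of P4HA1 was lost without tumor replicate 1, 2 or 3 or normal replicate 2 or 3 (adjusted p = 0.0628 to 0.102, differences of 0.69 to 0.94), and without normal replicate 1 the difference was 1.15 (adjusted p = 0.00405).

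Lysyl hydroxylases are encoded by PLOD1, PLOD2 and PLOD3. PLOD2 makes the enzyme that hydroxylates lysines in the telopeptides, the short non-helical ends of collagen chains from which stable cross-links start. It stood at 11.46, 11.49 and 11.73 in tumor samples and at 11.25, 10.87 and 11.07 in normal samples. The groups did not overlap, with 0.21 between the lowest tumor sample and the highest normal sample. PLOD2 rose by 0.50 ± 0.14 (adjusted p = 0.0461, limma), a fold of 1.41 with a 95% interval of 1.13 to 1.77. PLOD1, which acts on lysines within the helix, stood at 10.08, 9.99 and 9.99 in tumor samples and at 10, 9.37 and 8.99 in normal samples. Normal 1 was level with the tumor samples and the other two normal samples were lower. The difference of 0.57 ± 0.23 did not pass (adjusted p = 0.143, limma), and it was 0.84 without normal replicate 1 (adjusted p = 0.0119). PLOD3, which also adds sugars to hydroxylysine, differed by 0.23 ± 0.14 (adjusted p = 0.307, limma). The call of PLOD2 was lost without tumor replicate 1, 2 or 3 or normal replicate 2 or 3 (adjusted p = 0.0806 to 0.159, differences of 0.40 to 0.55). Quantile normalization (0.38, adjusted p = 0.107) and median centring (0.48, adjusted p = 0.0529) ended the call too, as did testing all probe sets (adjusted p = 0.0589).

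SERPINH1 encodes the collagen-specific chaperone of the ER. It was the only one of the 10 genes to fall. Its level was 10.85, 10.90 and 10.82 in tumor samples and 11.21, 11.37 and 11.31 in normal samples. Both groups were tight, with ranges of 0.08 in tumor and 0.16 in normal samples, and the gap between them was 0.31. The difference was -0.44 ± 0.11 (adjusted p = 0.0267, limma), a fold of 0.737 with a 95% interval of 0.621 to 0.875. The call was lost without tumor replicate 1, 2 or 3 or normal replicate 2 or 3 (adjusted p = 0.0621 to 0.105), although the difference then stayed between -0.46 and -0.40. General ER chaperones gave values on the same side: of 7 measured, 6 lay below 0, with a median of -0.31, while 1 rose and 1 fell by the test and 5 had an unadjusted p of 0.05 or less. CALR (calreticulin) fell by 0.47 ± 0.10 on the log2 scale (adjusted p = 0.0182, limma), but missed the threshold once tumor replicate 1 or 2 or normal replicate 2 was left out (adjusted p = 0.0575 to 0.0687). The exception was ERO1A, the oxidase that recharges protein disulfide isomerase, which stood at 9.11, 9.03 and 9.27 in tumor samples and at 8.85, 7.81 and 7.68 in normal samples. ERO1A rose by 1.02 ± 0.29 (adjusted p = 0.0442, limma) and lost its call in 5 of 6 fits with 1 sample left out, all but the fit without normal replicate 1 (adjusted p = 0.0985 to 0.148), and also with all probe sets tested (adjusted p = 0.0567).

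**Figure D2:**
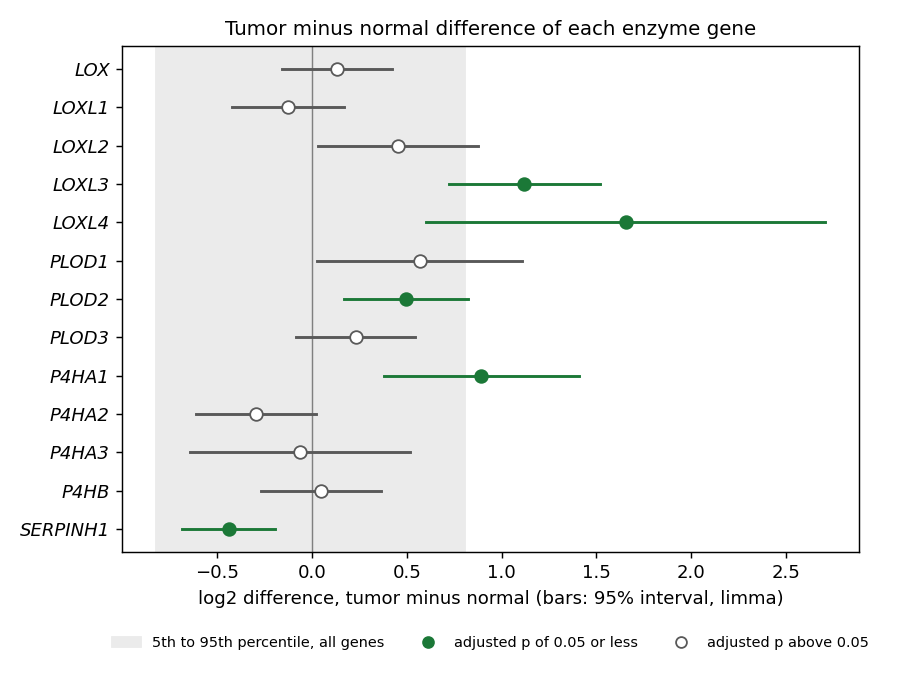
Log2 difference, tumor minus normal, of the 10 genes and of LOXL3, PLOD3 and P4HB, with 95% intervals from limma. Filled points passed an adjusted p of 0.05, and the grey band runs from the 5th to the 95th percentile of all genes (-0.82 to 0.81); P4HA1, LOXL3 and LOXL4 lie to the right of it.

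The lysyl oxidase family has a shared catalytic domain, and its members LOXL2, LOXL3 and LOXL4 also carry scavenger receptor domains. LOX, the founding member, was at 12.17, 12.02 and 11.87 in tumor samples and at 11.94, 11.96 and 11.77 in normal samples. The groups overlapped, and the difference of 0.13 ± 0.13 (adjusted p = 0.557, limma) had a 95% interval of 0.895-fold to 1.34-fold. LOXL1, which is required for elastic fibre renewal in mice, stood at 10.74, 10.50 and 10.44 in tumor samples and at 10.77, 10.72 and 10.57 in normal samples. It too overlapped, at -0.13 ± 0.13 (adjusted p = 0.574, limma; 0.747-fold to 1.12-fold). LOXL2, which cross-links type IV collagen among others, was at 10.53, 10.81 and 10.92 in tumor samples and at 10.64, 10.24 and 10.02 in normal samples. Normal 1 lay above tumor 1, and the difference of 0.45 ± 0.18 did not pass (adjusted p = 0.137, limma), while without normal replicate 1 it was 0.62 (adjusted p = 0.0397).

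LOXL4 had the largest difference of the 10 genes and the widest spread in both groups. It stood at 8.60, 7.37 and 7.13 in tumor samples and at 6.85, 5.89 and 5.40 in normal samples. Tumor 1 was more than 1 log2 unit above the other two tumor samples, and normal 1 was the closest of its group to the tumor samples. LOXL4 rose by 1.65 ± 0.46 (adjusted p = 0.0419, limma), a fold of 3.15 with a 95% interval of 1.51 to 6.53. The call was lost without tumor replicate 1 or 2 or normal replicate 2 or 3 (adjusted p = 0.0783 to 0.127, differences of 1.20 to 1.82), and with all probe sets tested (adjusted p = 0.0537). LOXL4 was also read by another probe set, at 6.49, 5.98 and 6.13 in tumor samples and at 5.94, 5.38 and 5.06 in normal samples. That probe set gave a smaller difference, 0.74 ± 0.24 (adjusted p = 0.0845, limma over all probe sets), so the size depended on the probe set. The 6 mural cell markers (of pericytes and smooth muscle), 2 higher and 2 lower in tumor cells, had a mean level of 6.04, 5.5 and 5.11 in tumor samples and 5.16, 5.24 and 5.25 in normal samples, with tumor 1 the highest as in LOXL4; their part in this result was not tested. The remaining paralog, LOXL3, stood at 7.49, 7.33 and 7.27 in tumor samples and at 6.53, 6.30 and 5.90 in normal samples. LOXL3 rose by 1.12 ± 0.17 (adjusted p = 0.00464, limma), a 2.17-fold rise that passed in each of the 6 fits with 1 sample left out (adjusted p = 0.00388 to 0.0217).

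**Figure D3:**
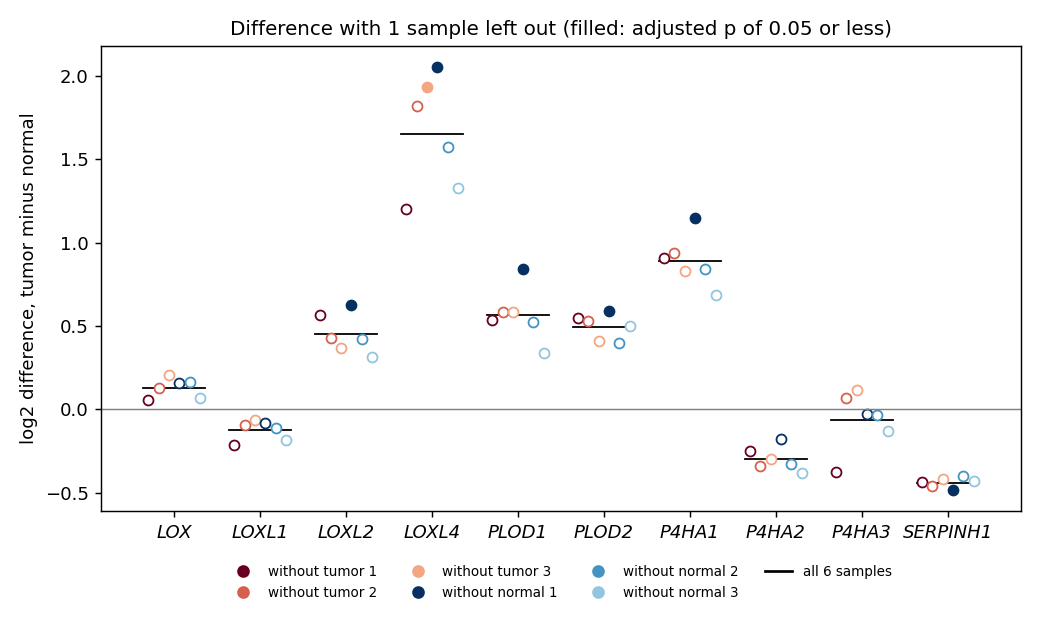
Log2 difference, tumor minus normal, of each of the 10 genes in limma with each sample left out in turn (points) and with all 6 samples (lines). Filled points passed an adjusted p of 0.05; without normal 1 there were 6 such genes, without tumor 3 there was 1, and without any other sample there were 0.

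Paralogs of each enzyme family were set against each other within each array, as the log2 ratio of a pair of genes, for the 10 pairs possible among the lysyl oxidases, lysyl hydroxylases and prolyl 4-hydroxylases. Only the change of a ratio between groups has a meaning here, not its level. The ratio of P4HA2 to P4HA1 was -1.62, -1.39 and -1.68 in tumor samples and -0.65, -0.34 and -0.13 in normal samples. All tumor samples were lower, by -1.19 on average. The ratio of LOXL4 to LOX was -3.57, -4.65 and -4.74 in tumor samples and -5.09, -6.07 and -6.37 in normal samples, higher by 1.52. The ratio of LOXL1 to LOX, lower by 0.26 in tumor cells, had tight groups, at -1.46 ± 0.05 in tumor samples and -1.20 ± 0.04 in normal samples (SD, n = 3). PLOD2 to PLOD1 showed little of this, at 1.54 ± 0.18 in tumor samples and 1.61 ± 0.43 in normal samples. The ratio of LOXL4 to LOXL1 changed most, at -2.14, -3.13 and -3.31 in tumor samples and -3.92, -4.83 and -5.17 in normal samples, higher by 1.78. That ranking used the brighter LOXL4 probe set, and the other gave a smaller LOXL4 difference (0.74 against 1.65). Groups did not overlap in 4 of the 10 pairs, near the 35.7% of single genes, and no share over other gene pairs was computed. The pairs share genes, so they are not separate results. In the pair of LOXL4 with LOXL2 the groups touched, with tumor 3 and normal 1 both at -3.79. With 3 samples against 3, a two-sided exact permutation test cannot go below p = 0.1, so no pair could reach 0.05; 4 pairs gave this smallest value, namely P4HA2 with P4HA1, LOXL4 with LOX, LOXL4 with LOXL1 and LOXL1 with LOX (exact permutation p = 0.1).

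The normal samples spanned a wider range than the tumor samples in 6 of the 10 genes. Normal 1 was the highest of the normal samples in 8 of 10 genes and normal 3 the lowest in 8 of 10, whereas over all genes normal 1 was highest in 37.3% and normal 3 lowest in 40.5%. PLOD1 was 1.01 higher in normal 1 than in normal 3, P4HA1 0.93 higher and LOXL4 1.45 higher. P4HA1, P4HA2, PLOD2, LOX and LOXL2 are known from human and mouse cells as genes induced by hypoxia. The mean level of 20 other hypoxia targets was 8.42, 8.46 and 8.43 in tumor samples and 8.30, 7.46 and 6.74 in normal samples. Normal 1 was thus near the tumor samples and normal 3 farthest from them, and normal 1 was the highest of its group in 18 of the 20 genes. P4HA1, LOXL2 and P4HA2 had their normal samples in the same order, whereas PLOD2 and LOX did not. P4HA2 was lower in tumor samples, so there normal 1 was the farthest from them and normal 3 the nearest. The lowest normal sample of PLOD2 was normal 2, and the highest of LOX was normal 2. LOXL1, LOXL4, PLOD1 and P4HA3, not named above as hypoxia-induced, had the order of the hypoxia list too. The part of this list's variation in the differences of the 10 genes was not tested.

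**Figure D4:**
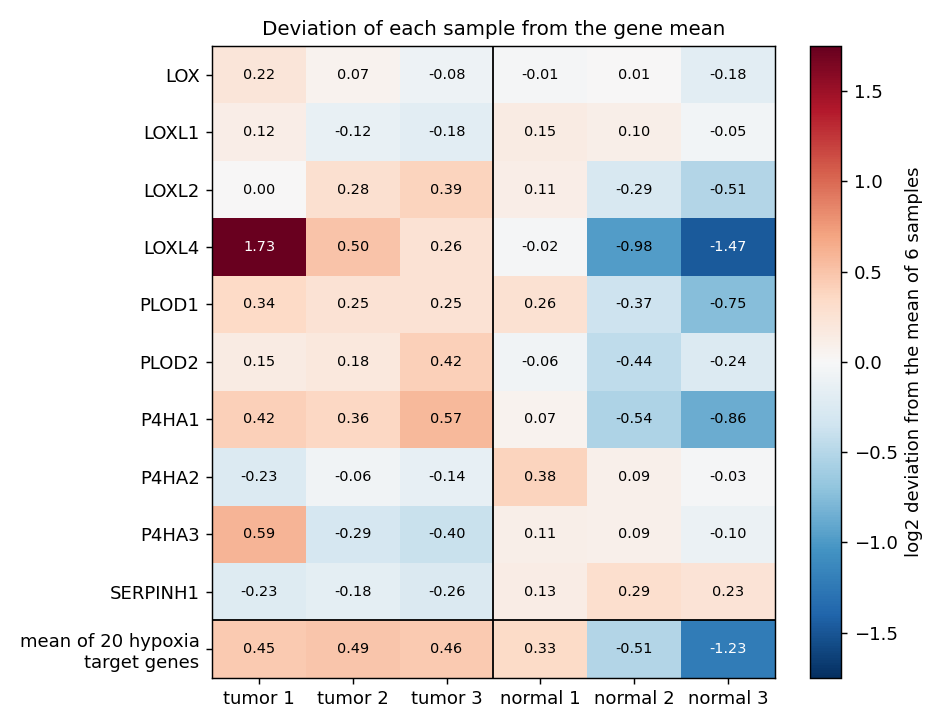
Log2 deviation of each sample from the mean of 6 samples, for the 10 genes (rows above the line) and for the mean of 20 hypoxia targets (bottom row), with tumor samples left of the vertical line. In P4HA1 normal 3 is at -0.86 and normal 1 at 0.07, and in the hypoxia list normal 3 is at -1.23 and normal 1 at 0.33; SERPINH1 and P4HA2 have all tumor samples below 0.

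Of the 20 hypoxia targets, 5 rose and 0 fell in limma, where 8.56% of all genes rose and 9.44% fell. Their median was 0.34, with 16 above 0 and 4 below 0. An unadjusted p of 0.05 or less was reached by 7, against 30.9% of all genes. Among these 7, NDRG1, named after its values were seen, was lower in tumor samples (-0.46 ± 0.15, adjusted p = 0.07, limma). NDUFA4L2, a mitochondrial protein, stood at 9.49, 9.57 and 9.30 in tumor samples and at 7.03, 3.80 and 2.16 in normal samples, and was called higher (difference of 5.12 ± 1.03, adjusted p = 0.013, limma). The size is uncertain, since normal 3 lay under the background guide and normal 2 close to it: the difference was 6.47 without normal replicate 1 and 4.04 without normal replicate 3. The call ended with normal replicate 2 left out (adjusted p = 0.0536). CA9, a carbonic anhydrase, stood at 8.09, 7.94 and 6.93 in tumor samples and at 6.68, 3.83 and 2.87 in normal samples, with normal 3 again under the guide. CA9 rose by 3.19 ± 0.86 (adjusted p = 0.0387, limma), a size that was 4.30 without normal replicate 1 and 2.40 without normal replicate 3. The call held only without normal replicate 1 when 1 sample was left out (adjusted p = 0.0627 to 0.129 in the other fits). PFKFB3, a regulator of glycolysis, rose by 2.25 ± 0.25 (adjusted p = 0.0012, limma). The remaining called genes, ADM and ANKRD37, are named after their values were seen, and ANKRD37 lost its call without tumor replicate 2 or 3 or normal replicate 2 (adjusted p = 0.0585 to 0.0685). Leaving out normal replicate 1 gave 10 that rose, leaving out normal replicate 2 gave 2, and leaving out tumor replicate 2 or 3 gave 3.

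Of 10 other genes that fold or modify collagen in the ER, 1 rose and 0 fell in limma, with 4 above 0, 6 below 0 and a median of -0.02, and 2 had an unadjusted p of 0.05 or less. The gene that rose was P3H2, a prolyl 3-hydroxylase known to act on type IV collagen, at 10.38, 10.05 and 10.36 in tumor samples and at 8.32, 8.79 and 9.53 in normal samples. P3H2 rose by 1.38 ± 0.28 (adjusted p = 0.0137, limma), and its normal samples ran the other way from those of P4HA1, with normal 3 the highest. With normal replicate 2 left out it missed the threshold (adjusted p = 0.0546). COLGALT1, a galactosyltransferase of hydroxylysine named after its values were seen, lay just short of the threshold (-0.40 ± 0.12, adjusted p = 0.0516, limma). COLGALT1 passed under 5 of 10 alternatives, among them median centring (adjusted p = 0.0413, limma), but in 0 of 6 fits with 1 sample left out (adjusted p = 0.0774 to 0.14, limma). PPIB, the cyclophilin of the prolyl 3-hydroxylase complex, differed by -0.07 ± 0.11 (adjusted p = 0.756, limma). Of 8 genes of procollagen export, 2 rose and 0 fell in limma, with 3 at an unadjusted p of 0.05 or less and a median of 0.16. They were SAR1B (0.56 ± 0.12, adjusted p = 0.0182, limma), a GTPase that starts COPII coats, and SEC23A (0.48 ± 0.12, adjusted p = 0.0303, limma), a coat subunit. SAR1B lost its call without tumor replicate 1 or 3 or normal replicate 2 (adjusted p = 0.0559 to 0.0763), and SEC23A without any sample but normal replicate 1 (adjusted p = 0.0506 to 0.0964).

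Genes that trim procollagen outside the cell were split. Of the 8, 2 rose and 2 fell, with a median near 0 (-0.003). PCOLCE, which enhances removal of the C-propeptide, stood at 10.14, 10.07 and 9.89 in tumor samples and at 9.33, 9.07 and 8.61 in normal samples, and rose by 1.03 ± 0.19 (adjusted p = 0.00918, limma). Its paralog PCOLCE2 stood at 8.81, 9.30 and 9.21 in tumor samples and at 10.28, 10.19 and 9.73 in normal samples, and fell by 0.96 ± 0.19 on the log2 scale (adjusted p = 0.0125, limma). PCOLCE2 missed the threshold with normal replicate 2 left out (adjusted p = 0.0543). Among the N-propeptide proteases, ADAMTS3 fell by 1.42 ± 0.30 on the log2 scale (adjusted p = 0.0163, limma). ADAMTS2, named after its values were seen, rose by 0.90 ± 0.12 (adjusted p = 0.00232, limma). BMP1, the C-proteinase that also activates LOX, differed by 0.03 ± 0.14 and its groups overlapped.

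Of 5 matrix partners of the lysyl oxidases, 2 rose and 0 fell in limma, with 3 at an unadjusted p of 0.05 or less and a median of 0.43. EFEMP2 (fibulin-4), which brings LOX to elastin, stood at 10.33, 10.28 and 9.97 in tumor samples and at 9.36, 9.33 and 8.93 in normal samples, and rose by 0.99 ± 0.16 (adjusted p = 0.00615, limma). FBLN5 (fibulin-5), a partner of LOXL1, stood at 9.56, 9.83 and 9.21 in tumor samples and at 8.09, 8.40 and 8.89 in normal samples, and rose by 1.07 ± 0.23 (adjusted p = 0.0175, limma). FBLN5 missed the threshold with tumor replicate 1 or 2 or normal replicate 2 left out (adjusted p = 0.0567 to 0.0653). Both partners thus had all tumor samples above all normal samples, as had 17.6% of all genes, while LOX and LOXL1 themselves overlapped. The partner list was not uniform. POSTN, which was not called, had no overlap either, whereas FN1 and FMOD overlapped, with differences of 0.03 and 0.07. Of 5 genes of copper and ascorbate supply, 1 fell and 0 rose in limma, with 3 at an unadjusted p of 0.05 or less and a median of -0.13. ATOX1, the chaperone that hands copper to the Golgi pump from which lysyl oxidases are loaded, fell by 0.59 ± 0.12 on the log2 scale (adjusted p = 0.0153, limma), a call that ended with tumor replicate 1 or 2 or normal replicate 2 left out (adjusted p = 0.0509 to 0.0647).

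Among 10 substrates, the fibrillar collagens and elastin, 1 rose and 1 fell, with a median of 0.03. COL1A1, the main fibrillar chain, stood at 11.95 ± 0.06 in tumor samples and 11.94 ± 0.10 in normal samples (SD, n = 3). COL3A1 rose by 0.61 ± 0.14 (adjusted p = 0.0228, limma), which missed the threshold with tumor replicate 1 or 2 left out (adjusted p = 0.0726 and 0.0815), and COL11A1 fell by 2.79 ± 0.12 on the log2 scale (adjusted p = 2.34e-05, limma). Of 8 targets of TGF-beta, 3 rose and 2 fell, with a median of 0.04. ITGA11, a collagen receptor, stood at 4.82, 5.46 and 4.69 in tumor samples and at 3.54, 3.29 and 3.09 in normal samples. ITGA11 was called higher in tumor cells (adjusted p = 0.00232, limma), but its normal samples lay at or under the background guide, so the size of its rise was not well measured. TGFBI, a matrix adhesion protein, fell by 1.74 ± 0.20 on the log2 scale. SMAD7, an inhibitor of the pathway, rose by 1.05 ± 0.26 (adjusted p = 0.0284, limma), but not with tumor replicate 2 or 3 or normal replicate 1 or 2 left out (adjusted p = 0.0668 to 0.103). Leaving out normal replicate 1 or 2 or tumor replicate 2 or 3 gave 1 that rose.

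**Figure D5:**
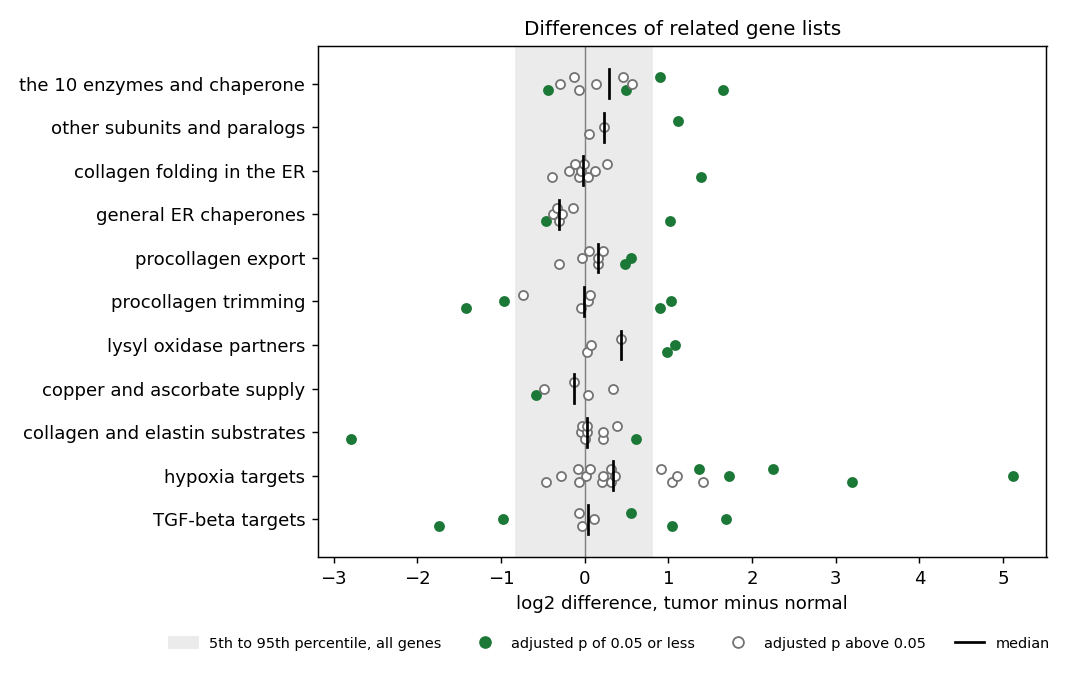
Log2 difference, tumor minus normal, of each gene in the lists described (points, filled where the adjusted p was 0.05 or less), with the median of each list (vertical bars). The grey band runs from the 5th to the 95th percentile of all genes; the folding and substrate lists have medians near 0 (-0.02 and 0.03), and the hypoxia list reaches 5.12.

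For the 2 genes with the largest differences, the 3 genes with the most similar profile were sought as the smallest Euclidean distance between mean-centred log2 values over the 6 samples. For LOXL4 they were COL18A1 (distance 0.45), which encodes a basement membrane collagen, VWA5A (0.54) and LOC783912 (0.56). COL18A1 stood at 8.45, 7.80 and 7.23 in tumor samples and at 6.77, 6.04 and 5.52 in normal samples. Its highest sample in each group was the same as in LOXL4, but it was picked for its similar profile, so this is not a separate result. For P4HA1 they were BTG1 (0.14), an antiproliferative factor, CD9 (0.24), a tetraspanin, and CDO1 (0.25), a cysteine dioxygenase. BTG1 stood at 8.97, 8.98 and 9.23 in tumor samples and at 8.62, 8.11 and 7.84 in normal samples.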

How the data were processed

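Biotin-labelled RNA was hybridised to arrays. The deposited values are log2 expression made by the authors with RMA, per the submitters' processing notes; the sources used here give neither software nor version. RMA subtracts a modelled background, brings all arrays to 1 distribution and combines the probes of a set, and it can shrink differences at the dim end. Per the labels' protocols the RNA was amplified from its 3' end, and which part of each transcript the probes read is not known here. Groups and replicate numbers came from sample titles. The table held 24415 probe sets, of which 18457 had 1 gene symbol, 688 several and 5270 none in the platform annotation, and 17996 matched RefSeq genes of assembly ARS-UCD2.0 by Entrez identifier. P3H3 and PDIA6 had no probe set of their own.

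The comparison used lmFit and eBayes of limma 3.58.1 in R 4.3.3 (two-sided, no covariates), Benjamini-Hochberg adjusted over 18010 genes, and paralog ratios with scipy 1.17.1. On simulated data for the tumor and normal comparison over 18010 genes, with 50 genes changed at each size, the fit found 16% of those changed by 0.5 on the log2 scale, 72% of those changed by 1, 92% by 2 and 98% by 3, beside 8 false calls. With no gene altered, the fit made 0 calls. The simulation altered a much smaller part of the genes than the 18% called in the measured data. Benjamini-Hochberg adjustment is stricter in that case. The recovered shares are therefore not estimates of what the fit finds in the measured data, and they may be too low.

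The 10 genes and the related lists, from textbook knowledge, were chosen with earlier results of these data known. Genes named beside the 10 were the other subunits and paralogs, up to 3 called genes of each list with the largest differences, COL1A1, COL3A1 and PPIB, and the closest profiles. Alternatives were other normalizations, filters, variance priors, array weights, a replicate block, other probe set summaries and thresholds, and leaving out each sample. No batch was examined, since scanner files with their dates and slides were not used here.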

Additional observations from a re-analysis of the deposited data

How the results depend on the processing

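The sign of the difference was kept in all 16 alternative fits for each of the 4 called genes. This says little about stability. Their groups did not overlap, so leaving out 1 sample could not change the sign, and filters or variance priors leave the difference itself unchanged. The number of the 10 genes called, 4 as reported (3 higher and 1 lower in tumor cells), was 3 with quantile normalization or median centring and 6 with array weights (5 higher). It was 2 with all probe sets tested (1 higher), 1 with a difference of at least 1 (1 higher, 0 lower), and 0 in limma at an adjusted p of 0.01 (0 higher, 0 lower), where 6 had an unadjusted p of 0.05 or less. With 1 sample left out it ran from 0 to 6 (0 to 5 higher, 0 to 1 lower). PLOD1 and LOXL2 passed with array weights (adjusted p = 0.0284 and 0.0277). Same-numbered samples did not deviate together (correlations of 0.0498, -0.0771 and 0.073). With 3 samples per group this cannot show whether they share more than a number, and the sample titles do not say. With the replicate block 2 genes passed, LOXL4 and P4HA1 (2 higher, 0 lower), and 5 had an unadjusted p of 0.05 or less. Over all genes, 3242 calls (1542 higher, 1700 lower) became 5054 with array weights (2362 and 2692), 1297 at an adjusted p of 0.01 (661 and 636) and 1176 with a difference of at least 1 (614 and 562), and 2895 with the replicate block. Leaving out 1 sample gave 1765 to 3226 (876 to 1451 and 889 to 1775). Of the 84 related genes, 18 were higher and 7 lower, with 11 lower under a mean-variance trend and 13 with array weights; leaving out 1 sample gave 8 to 21 higher and 4 to 9 lower. The causes were not tested. Signal limits P4HA3, which lay near the background guide of 3.54, and the sizes of ITGA11, NDUFA4L2 and CA9, with normal samples at or under it.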
